A study of Homo sapiens with 27 samples.

Results

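WNT4 and 9 further genes for WNT ligands (WNT3, WNT5A, WNT5B, WNT6, WNT7B, WNT9A, WNT10A, WNT10B and WNT11) were described in 27 RNA-Seq libraries of invasive lobular breast carcinoma (ILC) cells. The members are the 10 rows of the deposited estimated counts that carry these gene names, out of 60619 genes, and all 10 were found. MM134 (MDA-MB-134VI) and SUM44 (SUM44PE) are established ER-positive ILC lines, from which long-term estrogen-deprived (LTED) variants had been grown in medium with charcoal-stripped serum, each variant an estrogen-independent clone that emerged there and was kept in that medium. MM134 cells gave 5 of the 9 groups (parental cells and 4 variants, named LTED-E, LTED-D, LTED-B and LTED-A) and SUM44 cells gave 4 (SUM44PE, SUM44F and their variants LTED-A and -B), with 3 libraries in each. SUM44F cells are SUM44PE cells adapted to the medium in which MM134 cells grow, and they served as the parental cells of the SUM44 LTED variants. MM134 parental, SUM44PE and SUM44F cells were also kept without hormone, for 3 days before collection, so no group held estrogen-treated cells. The libraries of a group came from 3 wells, so p-values measure the spread between wells and not between independent derivations of a variant.

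WNT ligands are secreted, lipid-modified glycoproteins that bind Frizzled receptors with the co-receptors LRP5 and LRP6 (stabilizing beta-catenin, which acts with TCF/LEF factors), or signal through ROR and RYK receptors without beta-catenin. The acyltransferase PORCN attaches the lipid, and the membrane protein WLS carries most WNT proteins to the cell surface. In the mammary gland WNT4 acts downstream of the progesterone receptor, and in ILC lines it is an ER target needed for growth, which is the question that its level in LTED cells bears on. WNT5A, WNT5B and WNT11 are known mainly for signaling without beta-catenin, WNT3, WNT6, WNT7B, WNT9A, WNT10A and WNT10B mainly for signaling with it, and WNT4 for either.

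The 250 bases before the RefSeq start are shown for WNT4, the gene the comparisons turn on, and for WNT6 and WNT9A, which fell in both SUM44 LTED variants. They come from RefSeq on GRCh38.p14, are written 5′ to 3′ on the gene's strand, and have each CG dinucleotide in capitals. They lie at chr1:22143098-22143347 (minus strand) for WNT4, chr2:218859555-218859804 (plus strand) for WNT6 and chr1:227947933-227948182 (minus strand) for WNT9A. The WNT4 window lies inside the longer span that the GENCODE annotation gives the gene, and those of WNT6 and WNT9A lie just outside their spans.
WNT4: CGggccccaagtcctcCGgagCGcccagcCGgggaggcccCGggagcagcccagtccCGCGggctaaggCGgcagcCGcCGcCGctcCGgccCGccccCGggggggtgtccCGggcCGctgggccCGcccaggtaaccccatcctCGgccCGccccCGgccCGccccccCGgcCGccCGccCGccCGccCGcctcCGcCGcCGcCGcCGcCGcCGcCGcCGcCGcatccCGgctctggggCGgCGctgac
WNT6: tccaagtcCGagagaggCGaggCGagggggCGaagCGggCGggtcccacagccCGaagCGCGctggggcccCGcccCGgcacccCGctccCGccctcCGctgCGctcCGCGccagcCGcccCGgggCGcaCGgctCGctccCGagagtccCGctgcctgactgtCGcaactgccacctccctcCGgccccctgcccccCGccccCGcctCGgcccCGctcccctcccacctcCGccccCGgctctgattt
WNT9A: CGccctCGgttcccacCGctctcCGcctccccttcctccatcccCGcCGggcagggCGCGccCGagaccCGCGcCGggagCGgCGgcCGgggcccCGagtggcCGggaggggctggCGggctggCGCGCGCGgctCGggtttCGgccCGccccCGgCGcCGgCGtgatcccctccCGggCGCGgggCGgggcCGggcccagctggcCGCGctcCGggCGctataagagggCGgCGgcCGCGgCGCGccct
The WNT4 window held 40 CG dinucleotides and 86.8% G and C, more than 99.8% of the 35116 windows of the same length. WNT9A had 44 CG dinucleotides and 84.4% G and C, and WNT6 had 32 and 79.2%, against medians of 11 and 58% over all windows. RefSeq windows matched 7 of the 10 members, all but WNT7B, WNT10B and WNT11. Neither the estrogen response element GGTCANNNTGACC, nor the arm GGTCA that it contains, was found on either strand in the 9 windows of those 7 members. These letters occur in 0.0399% and 32.65% of all windows. CTTTG, the core of TCF/LEF sites, was searched on both strands and was found at 1 place among the members, before WNT3, and in 42.1% of all windows. A match or its absence describes these letters in this window only.

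Libraries held 28582990 to 134881725 counts (median 44017960). In SUM44 LTED-A the difference between replicates 2 and 3 was smaller than sampling noise, so they were taken as 1 sample and that group has n = 2. The summed level of 6 luminal epithelial markers was 4122 to 8000 CPM (counts per 1000000 counts of the library, TMM-normalized) in every sample. SUM44F replicate 1 stood furthest apart. The 6 fibroblast markers summed to 361 CPM there and to 5.04 to 36.0 CPM in the 25 other samples. LUM had 2636 counts in SUM44F replicate 1 and at most 86 in any other library, with 0 in 14 of them. MM134 parental replicate 3 and MM134 LTED-D replicate 2 held smaller such counts, with 86 and 81 of LUM and 171 and 186 of COL3A1. The other libraries of those groups had 0 counts of LUM and at most 4 of COL3A1. MM134 parental replicate 3 is in all 4 MM134 comparisons, and member calls that turned without it are given below. Endothelial markers (PECAM1, CDH5 and VWF) summed to 25.8 to 40.5 CPM in the 3 SUM44F samples and to at most 11.1 CPM elsewhere, and immune markers to 2.40 to 15.4 CPM in MM134 LTED samples and at most 1.07 CPM in MM134 parental samples, where CD68 was the 1 of 5 that passed the filter. The part of these markers in the results was not tested. Values of the members against SUM44F are also given without SUM44F replicate 1, and for other WNT pathway genes the calls in SUM44 LTED cells that turned without it are named.

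Per kilobase of transcript, the scale on which levels of different genes are compared here, a few ligands made up most of the summed WNT ligand level in each group. WNT10B ranked first in MM134 parental cells (8.54 CPM per kb), in every MM134 LTED variant and in the 2 variants of SUM44. WNT11 ranked first in SUM44F (18.5 CPM per kb) and SUM44PE (12.5 CPM per kb). WNT4 had rank 4 in MM134 parental cells at 1.54 CPM per kb and rank 2 in MM134 LTED-A and LTED-E at 3.51 and 4.38 CPM per kb. The highest ligand of each group was the same with the length of all exons. It was also the same with RLE scaling, which rescales each sample as a whole and so could hardly change an order within a group.

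**Figure D1:**
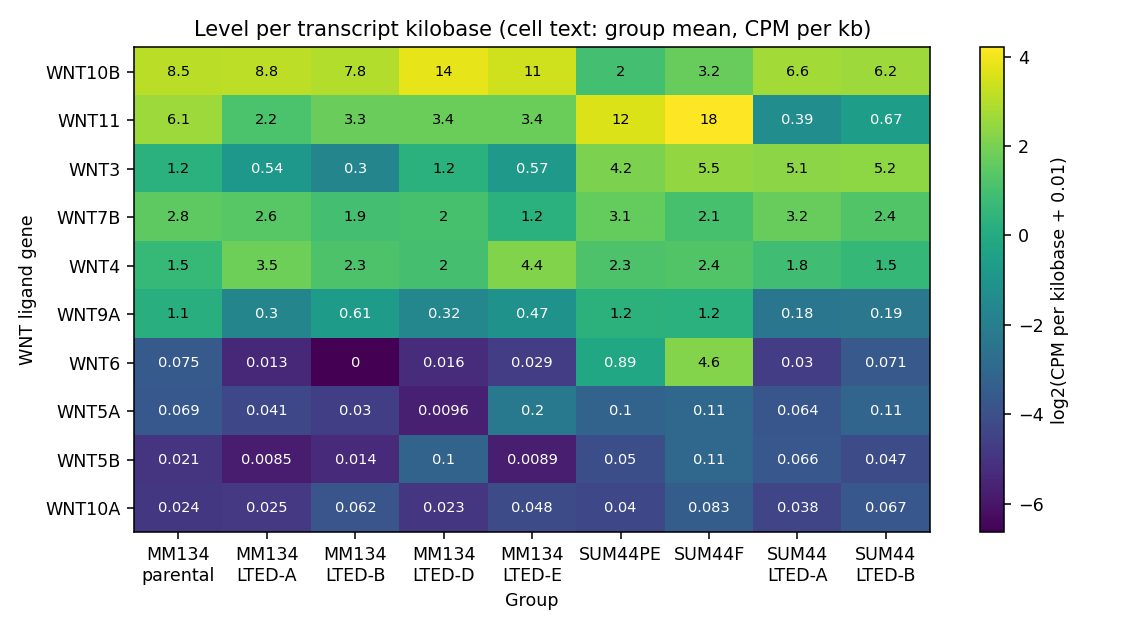
Mean level of each WNT ligand gene (rows) in each group (columns) in CPM per kilobase of the Ensembl canonical transcript, printed in the cells and coloured as log2(CPM per kb + 0.01). WNT11 goes from the highest ligand in SUM44F (18.5) to 0.388 in SUM44 LTED-A, and WNT4 is second to WNT10B in MM134 LTED-A and LTED-E.

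The summed level of the 10 members was 37.7 ± 2.89 CPM per kb (SD, n = 3) in SUM44F, 17.5 ± 0.818 (n = 2) in SUM44 LTED-A and 16.3 ± 0.671 (n = 3) in SUM44 LTED-B. In MM134 cells it stayed between 16.3 in LTED-B and 23.2 in LTED-D, with 21.5 ± 1.03 in the parental cells. WNT4 was 7.16% ± 0.459 of that sum in MM134 parental cells, 19.5% ± 1.38 in LTED-A and 20.8% ± 1.02 in LTED-E (SD, n = 3). WNT11 was 48.9% ± 1.94 of the sum in SUM44F (n = 3), 2.23% ± 0.510 in SUM44 LTED-A (n = 2) and 4.10% ± 0.598 in SUM44 LTED-B (n = 3). These sums and shares were not tested.

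WNT4 (ENSG00000162552, chr1:22117313-22143969 on hg38, minus strand) was higher in MM134 LTED cells than in MM134 parental cells and not in SUM44 LTED cells. The 3 MM134 parental samples had 5.69, 6.21 and 6.38 TMM-normalized CPM. MM134 LTED-A had 12.8, 14.8 and 14.2 CPM, and MM134 LTED-E had 17.8, 17.2 and 17.1 CPM. All samples of these variants lay above all parental samples, by about the same factor within a variant. MM134 LTED-B had 8.75, 9.59 and 8.76 CPM, and MM134 LTED-D had 7.65, 8.37 and 8.01 CPM. These samples also lay above the parental ones without overlap, but by less. A gene was called differentially expressed (DE) with a fold change above 1.5 and a Benjamini-Hochberg adjusted p under 0.001 over all genes tested in edgeR. On that rule WNT4 rose in LTED-A by a log2 fold change of 1.18 ± 0.07 (SE, 2.27-fold, adjusted p = 2.28e-11 in edgeR) and in LTED-E by 1.52 ± 0.07 (2.87-fold, adjusted p = 6.26e-13 in edgeR). In LTED-B the log2 fold change was 0.57 ± 0.07 (1.49-fold, adjusted p = 1.54e-06 in edgeR), just under the minimum fold. WNT4 in LTED-B passed when MM134 parental replicate 2 or 3, or LTED-B replicate 1 or 3, was left out (log2 fold changes of 0.59 to 0.61). In LTED-D it was 0.41 ± 0.07 (1.33-fold, adjusted p = 9.36e-05 in edgeR).

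**Figure D2:**
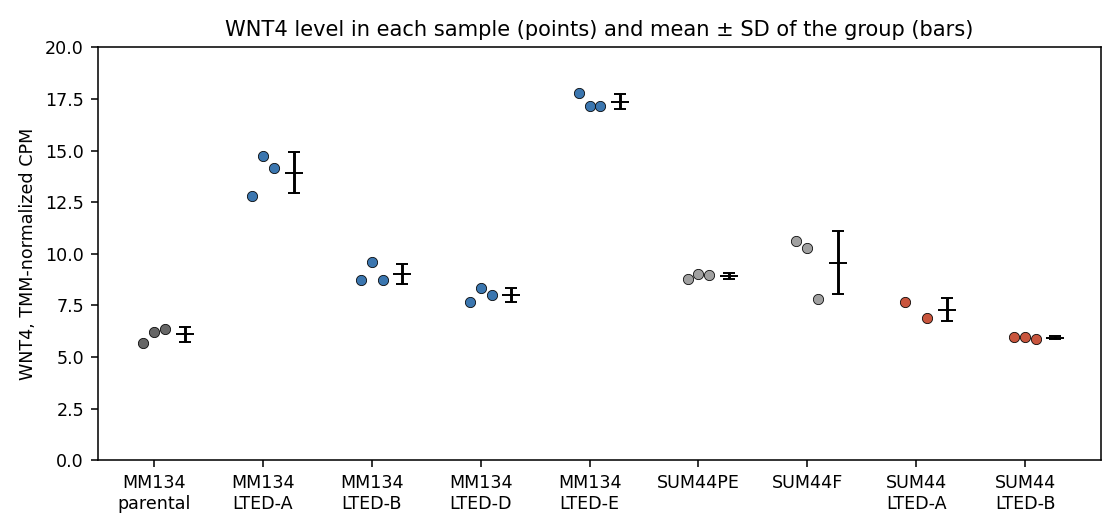
WNT4 in TMM-normalized CPM (vertical axis, from 0) in each sample (points) of the 9 groups, with the mean ± SD of each group (bars). MM134 LTED-A (12.8 to 14.8) and LTED-E (17.1 to 17.8) lie above every other sample, and SUM44 LTED-B (5.86 to 5.99) is near MM134 parental cells.

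In SUM44 cells WNT4 was 10.6, 10.3 and 7.81 CPM in SUM44F, 8.79, 9.04 and 8.97 CPM in SUM44PE, 7.69 and 6.91 CPM in SUM44 LTED-A, and 5.99, 5.98 and 5.86 CPM in SUM44 LTED-B. SUM44F replicate 3 was the lowest of its group, and the SUM44 LTED samples all lay below it. The log2 fold change against SUM44F was -0.39 ± 0.14 in LTED-A (adjusted p = 0.0586 in edgeR) and -0.69 ± 0.13 in LTED-B (1.61-fold lower, adjusted p = 0.00150 in edgeR). Neither passed the rule in this fit. For LTED-B that outcome depended on the setting. WNT4 passed there in DESeq2 (-0.65, adjusted p = 0.000117). In edgeR it passed with no filter on low counts (-0.67, adjusted p = 0.000285), with at least 10 counts in every sample (-0.72, adjusted p = 0.000663), with LTED-A replicates 2 and 3 kept apart (-0.68, adjusted p = 0.000909), in the fit with SUM44PE added (-0.67, adjusted p = 0.000356) and without SUM44F replicate 3 (-0.82, adjusted p = 0.000197). In the edgeR fit of all 9 groups SUM44F was higher than LTED-B by 0.68 ± 0.09 on the log2 scale (adjusted p = 6.99e-07 over all genes tested). SUM44F was also higher than LTED-A there, by 0.39 ± 0.10 (1.31-fold, adjusted p = 0.00233 in edgeR), under the minimum fold. In the SUM44 fit, leaving out SUM44F replicate 1 gave -0.61 in LTED-B (adjusted p = 0.00594 in edgeR) and -0.31 in LTED-A (adjusted p = 0.161 in edgeR).

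Ordered by mean, WNT4 was highest in MM134 LTED-E (17.4 CPM), followed by MM134 LTED-A (13.9 CPM), and these neighbours differed (adjusted p = 0.00649 in edgeR, in a fit of all 9 groups). MM134 LTED-A differed from the next group, SUM44F (9.58 CPM, adjusted p = 5.98e-06 in edgeR). SUM44F, MM134 LTED-B (9.03 CPM), SUM44PE (8.93 CPM), MM134 LTED-D (8.01 CPM) and SUM44 LTED-A (7.30 CPM) each did not differ from the next at an adjusted p under 0.05. SUM44 LTED-A was above MM134 parental cells (6.09 CPM, adjusted p = 0.0360 in edgeR), which did not differ from SUM44 LTED-B (5.95 CPM, adjusted p = 0.776). Of all 36 pairs of groups, 29 differed at that threshold, with p-values adjusted over the genes tested in each pair and not over the pairs.

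The 5 genes whose means over the 9 groups were most like those of WNT4, by Pearson correlation of log2(CPM + 1) among 13741 other genes, were TFPI (r = 0.968), ENSG00000279289 (0.927), NRP1 (0.925), KIZ (0.922) and SH3BGRL2 (0.921). TFPI encodes the tissue factor pathway inhibitor, and NRP1 a receptor for semaphorins and VEGF. TFPI had a mean of 25.2 CPM in MM134 parental cells, 115 CPM in MM134 LTED-A and 243 CPM in MM134 LTED-E, against 26.7 CPM in LTED-D. These points are 9 group means from 2 cell lines, and 3 of the 5 genes remained among the first 5 with a pseudocount of 0.1 and 2 with Spearman correlation. Of the 5 other members at or above 5 CPM in some group, WNT11 had the highest correlation with WNT4 (0.176). WNT10B had 0.160, WNT6 0.012, WNT3 -0.52 and WNT7B -0.62.

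By the same rule, members were DE as follows. In MM134 cells 7 of the 10 members passed the filter on low counts. In LTED-A 1 rose and 3 fell, where 20.3% of all 26061 genes tested were DE (10.5% higher and 9.82% lower). In LTED-B none rose and 3 fell, by edgeR and by DESeq2 (15.9% of all genes, 8.11% higher and 7.75% lower), while at an unadjusted p under 0.05 WNT4 was the 1 member that was higher. In LTED-D 1 rose and 3 fell (17.6%, 9.63% higher and 7.95% lower). In LTED-E 2 rose and 4 fell (19.0%, 8.71% higher and 10.3% lower). In SUM44 cells 8 of the 10 passed, WNT6 through its level in SUM44F alone, so that it could only be found lower and is 1 of the 3 that fell. There 1 rose and 3 fell in LTED-A (13.7% of 26828 genes, 6.40% higher and 7.29% lower) and in LTED-B (17.3%, 8.70% higher and 8.57% lower). Median log2 fold changes of the tested members ranged from -0.85 in MM134 LTED-B to -0.38 in SUM44 LTED-B, while those of all genes ranged from -0.09 to 0.02. In SUM44 LTED-A the members' median was -0.59, and -0.20 without SUM44F replicate 1. WNT6, which could only be found lower, is part of these SUM44 medians. Without WNT6 the middle member with all samples was WNT4 in SUM44 LTED-A (-0.39) and WNT3 in SUM44 LTED-B (-0.08). The 4 MM134 comparisons share the MM134 parental samples, and both SUM44 comparisons share SUM44F.

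**Figure D3:**
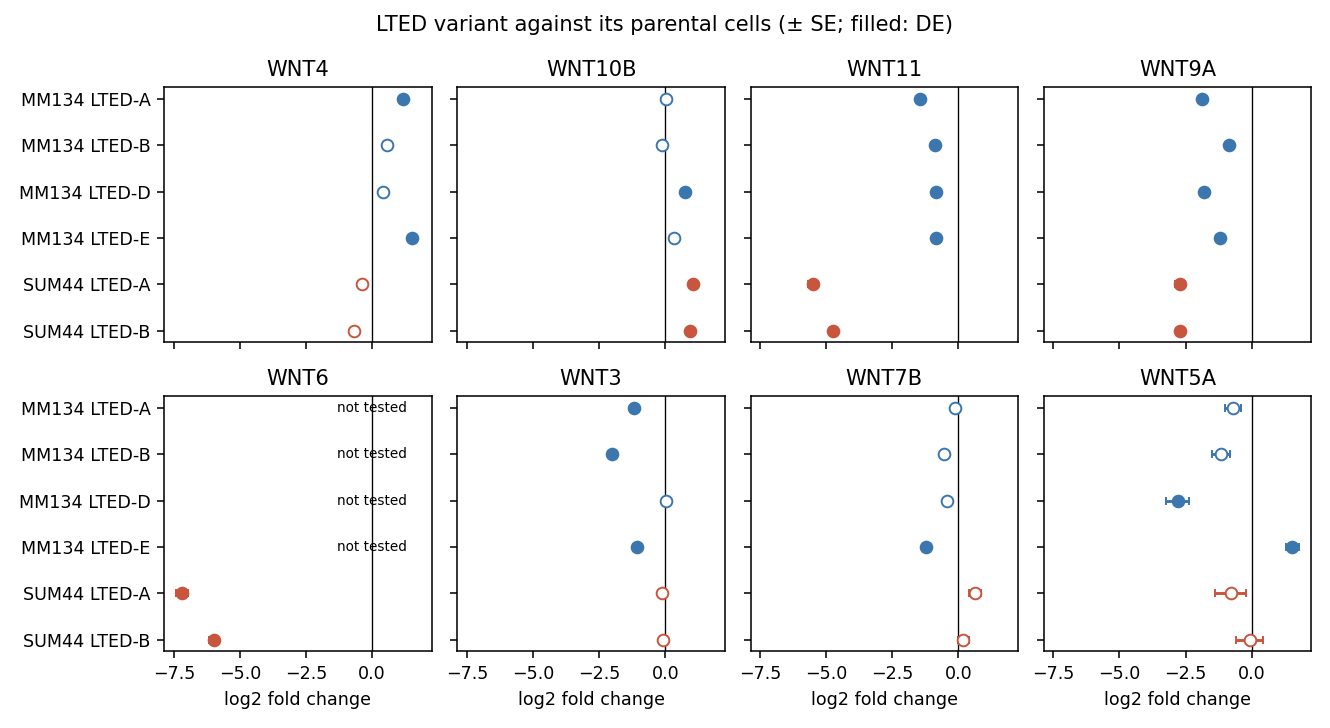
Log2 fold change (horizontal axis) of 8 WNT ligands in each LTED variant against its parental cells, with SE bars (smaller than the point for most), filled where DE. WNT11 and WNT9A lie below 0 in all 6 variants, and WNT4 lies above 0 in the 4 MM134 variants and below 0 in the 2 SUM44 variants.

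WNT11 (ENSG00000085741, chr11:76186325-76210736, minus strand), a ligand of polarity and convergent-extension signaling, fell in all 6 LTED variants. SUM44F had 34.2, 39.2 and 31.8 CPM, and SUM44PE had 23.8, 23.4 and 23.9 CPM. SUM44 LTED-A had 0.643 and 0.833 CPM, and SUM44 LTED-B had 1.21, 1.11 and 1.496 CPM. No LTED sample came near a parental one. The log2 fold change was -5.52 ± 0.19 in LTED-A (45.9-fold lower, adjusted p = 9.58e-09 in edgeR) and -4.75 ± 0.15 in LTED-B (27.0-fold lower, adjusted p = 3.72e-09 in edgeR), and -5.54 and -4.77 without SUM44F replicate 1. MM134 parental cells had 10.8, 12.1 and 11.8 CPM, and the 12 MM134 LTED samples had 3.70 to 7.27 CPM. These groups did not overlap either. The fall was largest in MM134 LTED-A (-1.47 ± 0.09, 2.77-fold) and was 1.78- to 1.83-fold in the other MM134 variants, with adjusted p-values of 1.22e-10 to 3.77e-07 in edgeR. WNT11 shares 204 exon bases with an antisense lncRNA, which had at most 60 counts in a library. The kit keeps strand, but the strand setting of the counting is not stated.

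WNT9A (ENSG00000143816, chr1:227918656-227947932, minus strand), known for its role in joint formation, also fell in all 6 variants. MM134 parental cells had 4.604, 4.64 and 3.95 CPM. LTED-A had 1.22, 1.28 and 1.08 CPM, LTED-B 2.39, 2.34 and 2.59 CPM, LTED-D 1.36, 1.12 and 1.32 CPM, and LTED-E 2.17, 1.74 and 1.77 CPM. All lay below the parental samples, LTED-B the least. The log2 fold changes were -1.88 ± 0.12, -0.85 ± 0.12, -1.78 ± 0.13 and -1.21 ± 0.12 in that order, with adjusted p-values of 1.30e-10, 5.73e-06, 9.35e-10 and 6.12e-08 in edgeR. SUM44F had 5.58, 4.51 and 4.44 CPM, SUM44PE 4.85, 4.92 and 5.14 CPM, SUM44 LTED-A 0.667 and 0.789 CPM, and SUM44 LTED-B 0.783, 0.742 and 0.710 CPM. The parental samples and the LTED samples did not overlap. WNT9A fell 6.54-fold in LTED-A (log2 fold change -2.71 ± 0.19, adjusted p = 1.92e-06 in edgeR) and 6.52-fold in LTED-B (-2.71 ± 0.17, adjusted p = 5.36e-07 in edgeR). Without SUM44F replicate 1 both log2 fold changes were -2.60.

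WNT6 (ENSG00000115596, chr2:218859805-218874233, plus strand), a ligand of epithelial tissues that is adjacent to WNT10A, was measured above the floor in SUM44 parental cells. SUM44F had 358, 389 and 728 counts (7.77, 7.60 and 8.11 CPM), and SUM44PE had 57, 67 and 65 counts (1.55, 1.41 and 1.64 CPM). SUM44 LTED-A had 2, 6 and 6 counts in its 3 libraries, and SUM44 LTED-B had 4, 5 and 11. The LTED libraries were all at or under 0.124 CPM, far below either parental group. The log2 fold change was -7.19 ± 0.22 in LTED-A, against -5.99 ± 0.17 in LTED-B. The ratio of counts, scaled by the total counts of the libraries without TMM, was 177 in LTED-A (exact 95% counting interval 89.6 to 411). It was 75.9 in LTED-B (48.9 to 125). Without SUM44F replicate 1 the log2 fold changes were -7.20 and -6.00. In MM134 cells WNT6 had 4, 4 and 5 counts in the parental libraries and at most 3 in any LTED library, with 0 in all 3 of LTED-B, which allows up to 3 counts in a library. It did not pass the filter in MM134 cells and was not tested there.

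**Figure D4:**
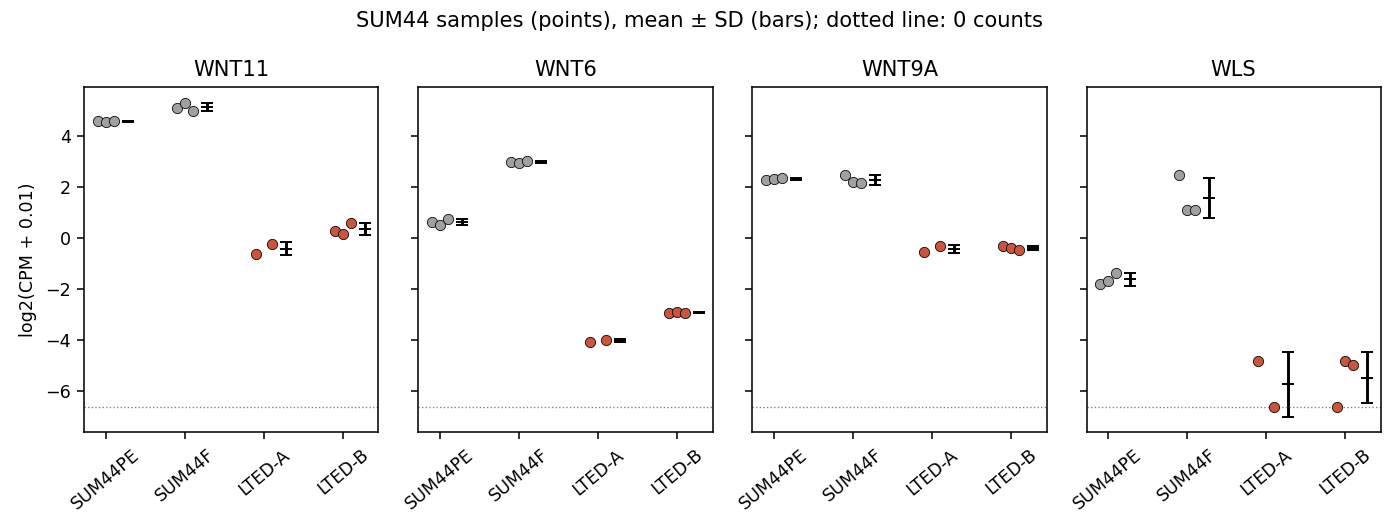
WNT11, WNT6, WNT9A and WLS in each SUM44 sample (points) as log2(CPM + 0.01), with the mean ± SD of each group (bars) and a dotted line at 0 counts. For all 4 genes every SUM44 LTED sample lies below every SUM44F and SUM44PE sample.

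WNT10B (ENSG00000169884, chr12:48965340-48971735, minus strand), which activates beta-catenin signaling in the early mammary bud, rose in both SUM44 LTED variants. SUM44F had 7.25, 8.13 and 6.39 CPM, SUM44 LTED-A 14.1 and 15.5 CPM, and SUM44 LTED-B 12.7, 14.9 and 13.9 CPM. Every LTED sample was above every SUM44F sample. The log2 fold change was 1.03 ± 0.12 in LTED-A (adjusted p = 7.92e-05 in edgeR) and 0.93 ± 0.11 in LTED-B (adjusted p = 6.92e-05 in edgeR), and it was the same to 2 decimals without SUM44F replicate 1. In MM134 cells the parental samples had 18.6, 20.6 and 18.3 CPM and LTED-D had 31.2, 31.3 and 32.4 CPM. WNT10B rose in LTED-D (0.73 ± 0.05, 1.66-fold, adjusted p = 4.83e-10 in edgeR). In LTED-E it had 22.8, 25.2 and 24.3 CPM, a 1.27-fold difference that was under the minimum fold (0.34 ± 0.05, adjusted p = 1.38e-05 in edgeR). LTED-A (18.9 to 21.0 CPM) overlapped with the parental samples. LTED-B (17.3 to 17.6 CPM) lay just below them, with a log2 fold change of -0.14 ± 0.05.

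WNT3 (ENSG00000108379, chr17:46762506-46833154, minus strand), which is needed for the primitive streak in the embryo, was higher in SUM44 than in MM134 cells. Among the LTED comparisons it changed in MM134 cells only. All SUM44 samples had 12.8 to 18.7 CPM, and neither variant passed the test (log2 fold change -0.11 ± 0.09 in LTED-A and -0.08 ± 0.08 in LTED-B). MM134 parental cells had 3.89, 4.21 and 3.76 CPM. LTED-A had 1.79, 1.67 and 1.84 CPM, LTED-B 0.928, 0.921 and 1.10 CPM, and LTED-E 1.66, 2.18 and 1.81 CPM. LTED-D, at 4.07, 4.27 and 3.65 CPM, overlapped with the parental cells, while the other variants lay below them. WNT3 fell by 1.17 ± 0.11 on the log2 scale in LTED-A (adjusted p = 5.11e-08 in edgeR), by 2.01 ± 0.13 in LTED-B (adjusted p = 1.99e-10) and by 1.06 ± 0.12 in LTED-E (adjusted p = 3.07e-07). In LTED-D the log2 fold change was 0.02 ± 0.11.

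WNT7B (ENSG00000188064, chr22:45920366-45977162, minus strand), an epithelial ligand of lung and kidney development, was 11.6, 11.5 and 10.2 CPM in MM134 parental cells and 5.09, 4.32 and 4.84 CPM in MM134 LTED-E. These did not overlap, and WNT7B fell in LTED-E by 1.22 ± 0.08 on the log2 scale (2.32-fold, adjusted p = 4.26e-10 in edgeR). LTED-A had 9.68 to 10.7 CPM, LTED-B 7.32 to 8.12 CPM and LTED-D 7.22 to 8.64 CPM. Their fold changes stayed under 1.5, at log2 values of -0.13 ± 0.08, -0.53 ± 0.08 and -0.45 ± 0.08. In LTED-B it passed without MM134 parental replicate 3 or without LTED-B replicate 1 (-0.59 in either case). In SUM44 LTED-A, replicate 1 had 17.2 CPM and the mean of replicates 2 and 3 was 8.44 CPM, near the 8.16, 8.46 and 7.97 CPM of SUM44F. The log2 fold change there was 0.64 ± 0.23 (adjusted p = 0.0538 in edgeR), and it was 1.07 (adjusted p = 0.000165) on replicate 1 alone, a sample assumed to vary like the other groups. SUM44 LTED-B had 8.52, 9.99 and 9.52 CPM and did not pass (0.19 ± 0.21).

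WNT5A (ENSG00000114251, chr3:55465715-55490539, minus strand), a ligand of ROR receptors made mainly by stromal cells in the breast, was low in all groups, at no more than 63 counts in a library. MM134 parental cells had 12, 15 and 14 counts, LTED-D had 1, 4 and 1, and LTED-E had 46, 55 and 60. LTED-D and LTED-E thus stood on opposite sides of the parental cells. WNT5A fell in LTED-D (-2.79 ± 0.44, adjusted p = 2.78e-05 in edgeR), and rose in LTED-E (1.54 ± 0.25, 2.91-fold, adjusted p = 4.42e-05 in edgeR). For LTED-D the ratio of counts, scaled by the total counts of the libraries, was 8.29 (exact 95% counting interval 3.50 to 23.9). LTED-A (-0.71 ± 0.29) and LTED-B (-1.17 ± 0.34, adjusted p = 0.00757 in edgeR) did not pass. In SUM44F, replicate 1 had 63 counts (1.37 CPM) and replicates 2 and 3 had 19 and 24 counts (0.371 and 0.267 CPM). The high value is the library with the high fibroblast markers. The part of those markers in it was not tested. SUM44 LTED-A had 0.395 and 0.351 CPM and LTED-B had 0.633, 0.667 and 0.546 CPM. Against all of SUM44F the log2 fold changes were -0.80 ± 0.60 and -0.08 ± 0.52. Without SUM44F replicate 1 they turned to 0.23 ± 0.34 (adjusted p = 0.650 in edgeR) and 0.95 ± 0.31 (adjusted p = 0.0293), and none of these passed the rule.

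**Figure D5:**
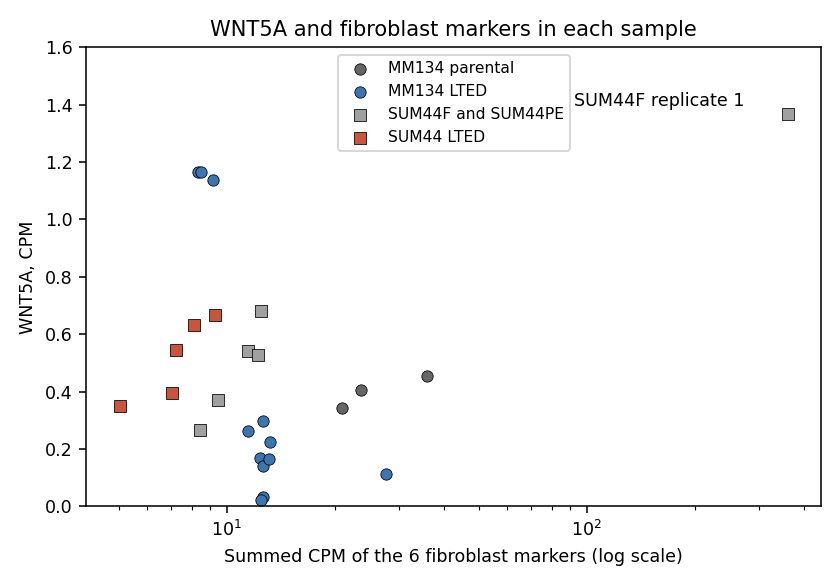
WNT5A in CPM (vertical axis) against the summed CPM of 6 fibroblast markers (horizontal axis, log scale) in each of the 26 samples, coloured by cell line and LTED status. SUM44F replicate 1 is alone at the right with 361 CPM of fibroblast markers and 1.37 CPM of WNT5A. MM134 LTED-E has 1.14 to 1.17 CPM of WNT5A and a marker sum of 8.30 to 9.14 CPM, most of it COL1A1.

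The fibroblast marker sum was 8.30 to 9.14 CPM in MM134 LTED-E and 20.9 to 36.0 CPM in MM134 parental cells. Most of these sums was COL1A1, which fell in all 4 MM134 variants (log2 fold changes -1.59 to -0.75). The highest of the parental sums was replicate 3, which also had 171 counts of COL3A1 and 86 of LUM. Replicates 1 and 2 had 4 and 2 counts of COL3A1 and 0 of LUM. The part of the markers in the WNT5A level of LTED-E was not tested. WNT5B (ENSG00000111186, chr12:1529891-1647212, plus strand) and WNT10A (ENSG00000135925, chr2:218880852-218899581, plus strand) were near the floor everywhere. WNT5B, the paralog of WNT5A, had at most 19 counts in a library and at most 3 in every library of 4 groups. WNT10A, a ligand of tooth and hair development, had at most 17 counts and was tested in no comparison. The filter on low counts left these 2 genes out of the LTED tests.

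SUM44PE cells differed from SUM44F cells, which were derived from them, in 2 of the 8 members tested, both lower in SUM44PE (5.57% of 27458 genes were DE, 2.85% higher and 2.72% lower). WNT6 was 5.14-fold lower (log2 fold change -2.36 ± 0.12, adjusted p = 3.00e-08 in edgeR) and gave -2.36 again without SUM44F replicate 1. WNT10B, at 4.26, 4.94 and 4.03 CPM in SUM44PE, was 1.65-fold lower (-0.72 ± 0.12, adjusted p = 0.000669 in edgeR). It lost the call when any library of SUM44PE, or SUM44F replicate 1 or 2, was left out (-0.82 to -0.64). Without SUM44F replicate 1 it was -0.71 (adjusted p = 0.00233 in edgeR). WNT11 was 1.49-fold lower in SUM44PE (-0.58 ± 0.10, adjusted p = 0.00140 in edgeR) and did not pass.

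MM134 parental cells and SUM44F cells differed in 5 of the 9 members tested, 1 higher and 4 lower in MM134, where 38.1% of 29606 genes were DE (19.1% higher and 19.0% lower). WNT10B was 2.66-fold higher in MM134 parental cells (log2 fold change 1.41 ± 0.08). WNT6, which was in this fit through its level in SUM44 cells, was lower by 5.92 ± 0.29 on the log2 scale, WNT3 4.54-fold, WNT11 3.03-fold and WNT4 1.57-fold, with adjusted p-values from 1.37e-16 for WNT3 to 1.25e-06 for WNT4 in edgeR. Without SUM44F replicate 1 the WNT4 fold was 1.48, under the minimum, and the other 4 members kept their call. WNT9A (-0.13 ± 0.11), WNT7B (0.44 ± 0.15), WNT5A (-0.67 ± 0.43) and WNT5B (-2.28 ± 0.70, adjusted p = 0.00615 in edgeR) did not pass.

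Log2 fold changes averaged over the 4 MM134 variants were set against those averaged over both SUM44 variants in 1 fit, so that the difference between the lines was itself tested. It passed for 6 of the 8 members that could be fitted, 3 in each direction, where 21.0% of 29606 genes passed (10.9% higher and 10.1% lower). For WNT4 the difference was 1.45 ± 0.11 (adjusted p = 5.21e-11 in edgeR), and 1.37 without SUM44F replicate 1. WNT11 (4.11 ± 0.13) and WNT9A (1.27 ± 0.15) fell more in SUM44 than in MM134 cells. WNT10B (-0.75 ± 0.10), WNT3 (-0.96 ± 0.11) and WNT7B (-0.99 ± 0.18) were higher, relative to their parental cells, in SUM44 LTED than in MM134 LTED cells. WNT5A (-0.37 ± 0.52, and -1.39 with an adjusted p of 0.00216 in edgeR without SUM44F replicate 1) and WNT5B (0.63 ± 0.97) did not pass, and WNT6 could not be fitted because MM134 LTED-B had no count. Each of these 6 calls was also made without SUM44F replicate 1.

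Several members lie close to another WNT gene, and the genes tested around some members are set beside them. WNT6 and WNT10A are 6.62 kb apart on chromosome 2, WNT10B and WNT1 6.59 kb apart on chromosome 12, WNT9A and WNT3A 59.1 kb apart on chromosome 1, and the annotations of WNT3 and WNT9B on chromosome 17 nearly touch. Of the 20 tested genes nearest to WNT4, 10 on each side, the median log2 fold change was -0.16 in MM134 LTED-A and -0.13 in LTED-E, where WNT4 rose by 1.18 and 1.52, and single neighbours ranged from -2.75 to 3.35 in LTED-A. The medians around WNT11 were 0.16 and 0.10 in SUM44 LTED-A and LTED-B, around WNT6 0.27 and 0.11, and around WNT9A 0.06 and 0.03. Around WNT10B they were 0.33 and 0.21 in these variants and 0.26 in MM134 LTED-D, in the direction of WNT10B itself (1.03, 0.93 and 0.73). WNT3A, named after its values were seen, had 39, 40 and 51 counts in SUM44F, 1, 10 and 8 in SUM44 LTED-A and 0, 1 and 3 in SUM44 LTED-B. Like WNT6, it passed the filter through SUM44F alone and could only be found lower.

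Of the 9 WNT ligand genes that are not members, WNT2B was the highest, with a mean of at most 7.88 CPM in a group, and the others did not exceed 0.844 CPM (WNT8B). WNT1, WNT2 and WNT8A had at most 3 counts in every library. WNT2B varied within groups, from 2.56 to 15.4 CPM in MM134 parental cells, where the high value was replicate 3. That library also had the highest fibroblast marker sum of its group, and the part of those markers in WNT2B was not tested.

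Of the genes that make WNT ligands secretable, WLS was near the floor in MM134 cells and in SUM44 LTED cells. WLS had 255, 108 and 193 counts in SUM44F, 10, 14 and 15 in SUM44PE, 1, 0 and 0 in SUM44 LTED-A, and 0, 1 and 2 in SUM44 LTED-B. In MM134 cells it had 1, 0 and 0 counts in the parental libraries and at most 11 in an LTED library. SUM44F thus stood apart from the 8 other groups, and its replicate 1, with 5.53 CPM against 2.11 and 2.15 CPM, was the highest. WLS passed the filter in the SUM44 fit through SUM44F alone, so it could only be found lower. The ratio of counts, scaled by the total counts of the libraries, was 534 in LTED-A (exact 95% counting interval 95.4 to 21120). It was 191 in LTED-B (64.9 to 927). These ratios were 391 (69.7 to 15510) and 140 (47.4 to 681) without SUM44F replicate 1. In SUM44PE WLS was 10.3-fold lower than in SUM44F (adjusted p = 9.26e-05 in edgeR), and 6.75-fold lower without SUM44F replicate 1 (adjusted p = 3.59e-05 in edgeR). PORCN had 4.23, 5.04 and 4.83 CPM in MM134 parental cells and 6.04 to 8.01 CPM in the 12 MM134 LTED samples. It rose in LTED-A (1.59-fold) and LTED-B (1.69-fold), with adjusted p-values of 4.03e-07 and 1.31e-07 in edgeR, and was 1.34- and 1.37-fold higher in LTED-D and LTED-E, under the minimum fold.

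Among 12 Frizzled and LRP receptors, 9 were tested in MM134 cells, and 2 or 3 rose and 2 or 3 fell in each variant, where 8.11 to 10.5% of all genes were higher and 7.75 to 10.3% lower. FZD7 fell in all 6 LTED variants, from 11.6 to 12.02 CPM in MM134 parental cells to at most 2.23 CPM in any MM134 LTED sample, and from 98.1 to 104 CPM in SUM44F to 21.0 to 28.7 CPM in SUM44 LTED cells. The log2 fold changes of FZD7 were -4.84 to -2.46 in MM134 cells and -2.26 and -1.86 in SUM44 cells. FZD10 (4.41 and 3.02) and FZD8 (1.04 and 1.57) rose in the SUM44 variants, and FZD8 also in 3 of the MM134 variants (0.91 to 2.72). Of 9 receptors that act without Frizzled or with it in polarity signaling, PTK7 (-1.97 to -1.28) fell in 3 MM134 variants and CELSR3 (-1.45 to -0.90) in all 4, while ROR1 (0.96 to 1.05) rose in 3. In SUM44 cells PTK7 fell in LTED-A (-2.29), and without SUM44F replicate 1 in both variants (-1.81 and -1.31).

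Of 11 cytoplasmic transducers, all tested, at most 1 was DE in an MM134 variant and at most 2 in a SUM44 variant. Of all genes, 15.9 to 20.3% were DE in the MM134 variants, and 13.7% and 17.3% in SUM44 LTED-A and LTED-B. Of 13 secreted inhibitors 2 were tested in MM134 cells, both named after their values were seen. DKK3 fell in all 4 variants (-4.25 to -3.49) and SOSTDC1 rose in LTED-D (4.81) and LTED-E (6.97). The mean of DKK3 was under 1 CPM in every group, so its fall is between low levels. In the R-spondin group LGR4, a receptor that sustains Frizzled levels, rose in all 4 MM134 variants (0.76 to 1.39). TLE4, a corepressor of TCF factors, rose in all 4 (1.42 to 2.88), and TCF7 (-1.27 to -1.03) and TLE2 (-0.89 to -0.64) fell in 3.

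Of 14 genes known as beta-catenin targets, 11 were tested in MM134 cells, and 2 to 4 rose and 3 to 5 fell in each variant. Of all genes, 8.11 to 10.5% were higher and 7.75 to 10.3% lower in these variants. The median log2 fold change of the targets was -0.83 in LTED-A and -0.35 to -0.29 in the other variants. AXIN2, a feedback inhibitor, fell from 30.1 to 31.0 CPM in MM134 parental cells to 3.90 to 11.6 CPM in the LTED samples (log2 fold changes -2.86 to -1.41). NKD1, another feedback inhibitor, rose in all 4 (1.24 to 4.60). MYC fell in all 4 (-6.12 to -2.71), and TNFRSF19 rose in all 4 (2.07 to 2.76). In SUM44 cells 12 targets were tested. In LTED-A 3 rose and 2 fell, where 6.40% of all genes were higher and 7.29% lower. In LTED-B 5 rose and 2 fell, where 8.70% of all genes were higher and 8.57% lower. CCND1 rose in both (1.79 and 1.65). AXIN2 fell in LTED-A (-2.61 ± 0.25) with no call in LTED-B (-0.54 ± 0.19), and NKD1 fell in LTED-A (-1.78) and rose in LTED-B (1.13). Across the pathway lists, LEF1 (2.80) and MYC (1.07) were also called higher in LTED-A, and VANGL2, a polarity protein, in LTED-B (5.12), when SUM44F replicate 1 was left out, while DKK1 in LTED-B, TLE3 and WNT8B in LTED-A and DVL3 in LTED-B lost their call.

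The estrogen receptor gene and 3 estrogen-induced genes are set beside WNT4. ESR1 was lower in MM134 LTED-A (-1.28 ± 0.03), where WNT4 rose, and higher in both SUM44 LTED variants (1.30 ± 0.11 and 1.25 ± 0.10), where WNT4 did not pass in the same fit. In the other MM134 variants ESR1 stayed under the minimum fold, at 0.57 in LTED-B, 0.38 in LTED-D and -0.44 in LTED-E. TFF1 rose in all 6 variants, by 7.04 to 9.15 on the log2 scale in MM134 cells and by 4.49 and 4.42 in SUM44 cells. PGR, the progesterone receptor gene, fell in all 4 MM134 variants (-4.33 to -2.17). PGR had 86, 91 and 96 counts in the MM134 parental libraries and at most 29 in an MM134 LTED library. In a SUM44 LTED library it had at most 14, so these LTED levels are low. In SUM44F it had 9.55, 1.33 and 1.53 CPM, and SUM44 LTED-A (-4.80) and LTED-B (-5.16) were not called (adjusted p = 0.00453 and 0.00122 in edgeR). Leaving out SUM44F replicate 1, the highest of these, PGR was called lower in both (-3.29 and -3.64, adjusted p = 0.00099 and 0.000244 in edgeR). GREB1 fell in MM134 LTED-A (-2.05 ± 0.04) and was not DE in the other 5 variants.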

How the data were processed

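RNA of 27 libraries (TruSeq Stranded Total RNA kit, HiSeq) had been quantified by the authors (Salmon 0.6.0 in the submitters' notes; Ensembl release 82 on hg38), and the deposited table holds estimated counts per gene. Trimming and the strand setting are not given in the sources used here. Estimated counts were rounded to whole numbers. Symbols, positions and canonical transcript lengths came from GENCODE v44, which holds 56434 of the 60619 genes. The members and gene lists were chosen with earlier results of these data known.

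Counts were tested with edgeR 4.0.16 (filterByExpr, TMM, quasi-likelihood test, two-sided) in R 4.3.3, in 1 fit of all MM134 libraries, 1 of SUM44F and the SUM44 LTED variants, 1 with SUM44PE added, and 1 of all 9 groups for comparisons between lines and for neighbours in order. A gene was DE with a fold change above 1.5 and an adjusted p under 0.001, the thresholds of the study. SE is the log2 fold change divided by the square root of F. Alternatives were DESeq2 1.42.0, RLE scaling, other filters and thresholds, the replicate number as a block, and leaving out each library. All members were named. Pathway genes were named, up to 3 a list, if DE in 1 direction in at least 3 MM134 variants or both SUM44 variants, by the largest smallest change, with at least 1 CPM in a group. AXIN2, NKD1, PORCN, DKK3, SOSTDC1, WNT3A and genes whose call turned without SUM44F replicate 1 were named after their values were seen. Counting intervals and floors cover counting error only. The tests were also run on counts simulated from the fitted spread, with changes set only in genes averaging at least 1 CPM. Such a run cannot check the assumed spread itself or genes with lower counts.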

Additional observations from a re-analysis of the deposited data

Results flagged for a closer look

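For 6 members the LTED effect differed between the cell lines when the difference itself was tested (edgeR, MM134 mean over 4 variants less the SUM44 mean over 2, as log2 fold changes). The differences were 1.45 for WNT4, 4.11 for WNT11, 1.27 for WNT9A, -0.75 for WNT10B, -0.96 for WNT3 and -0.99 for WNT7B. WNT4 was above the parental cells in 4 of 4 MM134 variants, DE in LTED-A and LTED-E, and had log2 fold changes of -0.39 and -0.69 in the SUM44 variants, neither DE in the SUM44 fit. WNT11 and WNT9A fell in both lines and differed in size. For WNT7B the SUM44 mean rests in part on SUM44 LTED-A replicate 1, with 17.2 CPM against 8.44 CPM in the mean of replicates 2 and 3. No group had more than 3 samples, so single samples were not tested as outliers.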

How the results depend on the processing

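Of 1256 member values and 168 counts or orders under alternative settings, 1202 and 152 kept their direction and call or stayed within 1.5 times. With a minimum fold of 2, the number of DE members went from 3 to 1 in MM134 LTED-B, from 4 to 2 in LTED-D, from 2 to 1 in SUM44PE and from 6 to 3 for the difference between lines, since several folds lie between 1.5 and 2. Without a minimum fold it was 5 in MM134 LTED-B. In SUM44PE it was 1 with RLE scaling and with at least 10 counts in every sample. Leaving out a library gave 4 DE members in MM134 LTED-A and LTED-D, 3 to 5 in LTED-B and 6 in LTED-E. It gave 4 to 5 in SUM44 LTED-B and in MM134 against SUM44F, 1 to 2 in SUM44PE and 6 for the difference between lines. In SUM44 LTED-A the number stayed at 4 when a library of SUM44F or SUM44 LTED-B was left out. Of the 5 genes most like WNT4, 3 stayed with a pseudocount of 0.1 and 2 with Spearman correlation. DESeq2 called 7 members for the difference between lines.

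Directions turned only in values that were not called. Leaving out libraries gave WNT5A log2 fold changes of -1.20 to 0.23 in SUM44 LTED-A, -0.50 to 0.95 in SUM44 LTED-B, -0.54 to 0.89 in SUM44PE and -1.12 to 0.36 for MM134 against SUM44F, the highest of each without SUM44F replicate 1, and -1.39 to 0.051 for the difference between lines. It turned also without SUM44 LTED-B replicate 3 (0.011), and under the replicate block (0.19 in LTED-B and 0.020 in SUM44PE, and 0.16 and 0.0099 with replicates 2 and 3 of SUM44 LTED-A apart). Values near 0 turned for WNT10B in MM134 LTED-A (-0.0065 to 0.087), WNT3 in MM134 LTED-D (-0.027 to 0.094, and -0.0075 without MM134 parental replicate 3) and SUM44 LTED-A (-0.14 to 0.00049), and WNT9A in SUM44PE (-0.025 to 0.15). The cause was not tested.

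Replicate numbers did not pair the samples (correlations of deviations from -0.45 to 0.33), and the replicate block changed no count of DE members (4, 3, 4 and 6 in the MM134 variants, 4 and 4 in the SUM44 variants). Low counts kept WNT5B, WNT10A and, in MM134 cells, WNT6 out of the LTED tests.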
